A study of Homo sapiens with 8 samples.

Results

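Transcripts of 9 genes whose proteins are clients of the 14-3-3 proteins were followed in A549 cells, an established human lung adenocarcinoma line, after knockdown of the long non-coding RNA LY6K-AS or of YWHAG, the gene of the gamma isoform of 14-3-3. The members were ARAF, BRAF, KSR1, BAD, FOXO1, FOXO3, FOXO4, TSC2 and AKT1S1, chosen by name as rows of both expression tables whose Ensembl identifier maps to these symbols in GENCODE 29. All 9 were found among the 66206 gene identifiers of each table, and all 9 passed the filter on low values in both. The LY6K-AS knockdown group received 25 pmol of a gapmer (an antisense oligonucleotide with locked nucleic acid ends, LNA, which directs cleavage of its target RNA) and was set against cells given 25 pmol of a scramble LNA gapmer. The YWHAG knockdown group received 40 pmol of siRNA and was set against cells given scramble siRNA at the same amount. Every group held 2 libraries, all from the same line transfected with RNAiMAX, with RNA taken from 100000 cells. The knockdown libraries carry the titles LNA1 and LNA3, and si1 and si2, so each may hold its own oligonucleotide, which the labels do not settle. Nothing in the labels states that libraries of a group came from separate cultures, so every p-value below measures only the spread between these libraries, which may be technical.

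The 14-3-3 proteins are dimers that bind partners at a phosphorylated serine or threonine and thereby hold them in one shape or one compartment. In RAF kinases, 14-3-3 clamps the closed inactive form through an internal site and steadies the active dimer through a site near the carboxyl end. AKT phosphorylates FOXO transcription factors, which 14-3-3 then keeps out of the nucleus, and it phosphorylates BAD, which 14-3-3 then keeps away from the survival proteins of mitochondria. TSC2 and AKT1S1 (also called PRAS40) restrain the growth kinase complex mTORC1, and both bind 14-3-3 after phosphorylation by AKT. All of this control acts on proteins; the libraries measured transcripts.

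The stretches of coding sequence around such sites show a motif that most of these genes, though not all, share beside their pathway. The lines below give 30 bases of the coding strand each, 5′ to 3′, read from GENCODE 29 transcripts on hg38, with the codon of the phosphorylated residue in capitals; the number is that codon's position in the protein. They are shown because 14-3-3 binding at these residues of ARAF, BRAF, BAD, FOXO1, FOXO3 and FOXO4 is well described, with the first match of KSR1 beside them.
ARAF codon 214: cgcatccgctccacgTCCactcccaacgtc
BRAF codon 365: cgagaccgatcctcaTCAgctcccaatgtg
ARAF codon 582: attgagcggagtgccTCGgaaccctccttg
BRAF codon 729: attcaccgcagtgcaTCAgaaccctccttg
BAD codon 75: cggagtcgccacagcTCCtaccccgcgggg
BAD codon 99: cggggccgctcgcgcTCGgcgccccccaac
FOXO1 codon 24: cggccgcgctcgtgcACCtggccgctgccc
FOXO3 codon 32: cgtccgcgatcctgtACGtggcccctgcaa
FOXO4 codon 32: cgtccccgctcctgcACCtggccccttccc
KSR1 codon 406: cttcggaggacagaaTCTgtcccctcggac

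The 2 RAF windows near the carboxyl end, ARAF codon 582 and BRAF codon 729, were identical at 25 of 30 bases. The internal windows of ARAF and BRAF were identical at 20 of 30. Among the FOXO factors, FOXO1 and FOXO4 were identical at 25 of 30 bases, FOXO3 and FOXO4 at 23, and FOXO3 and FOXO1 at 22. The strict form of the motif was searched in frame on the coding strand as codons for arginine, serine, any residue, serine or threonine, any residue and proline. It occurred in 7 of the 9 members and in 563 of 19516 protein-coding genes (2.88%). A wider form that allows any residue at the second position, and so includes every strict match, occurred in 8 of 9 members and in 4105 genes (21%). Of the windows above, BAD codon 75 and KSR1 codon 406 match the wider form only, and KSR1 held 0 strict matches. The strict match of TSC2, at codon 540, is not among the windows. AKT1S1 held neither form, which says only that these codons do not occur in its coding sequence. The members were chosen as known clients, so these shares are a description.

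Reads behind the values came to 26.2 and 30.9 M (megareads) in the LY6K-AS knockdown libraries, 34.0 and 30.5 M in LNA controls, 34.6 and 33.7 M in the YWHAG knockdown libraries and 34.5 M in each siRNA control. LNCOC1, the annotated antisense gene at LY6K, had 3 and 8 reads in LY6K-AS knockdown libraries and 34 and 17 in LNA controls, too few for the filter. YWHAG had 13.5 and 4.91 RPKM (reads scaled to transcript length in kilobases and to library size) in YWHAG knockdown libraries, against 163 and 158 RPKM in siRNA controls; its log2 change of -4.12 ± 0.43 (SE) did not pass (limma adjusted p = 0.13). The knockdown libraries differed among themselves more than the controls did. Over all genes tested, the SD of the log2 difference within a pair was 0.396 for LY6K-AS knockdown and 0.158 for LNA controls, and 0.434 for YWHAG knockdown and 0.195 for siRNA controls. Mitochondrially encoded genes took 8.37 and 4.12% of reads in LY6K-AS knockdown libraries, against 8.43 and 6.43% in LNA controls, and 14 and 18.2% in YWHAG knockdown libraries, against 15.3 and 18.2% in siRNA controls. All 5 epithelial markers (KRT8, KRT18, KRT19, EPCAM and CDH1) reached 0.5 RPKM in every group and no endothelial marker did. Of 5 fibroblast markers 2 reached it in both LNA groups and 1 in both siRNA groups, and of 5 immune markers 1 in every group; in the LNA table PTPRC, CD3E and DCN were at 0 in all groups. Fibroblast markers summed to 3.98 to 10.0 RPKM in LY6K-AS knockdown libraries and 6.91 to 7.55 RPKM in LNA controls, and to 0.905 to 1.59 RPKM in YWHAG knockdown libraries and 2.23 to 2.37 RPKM in siRNA controls. Immune markers summed to 2.07 to 3.35 RPKM in LY6K-AS knockdown libraries and 1.97 to 2.30 RPKM in LNA controls, and to 0.583 to 1.60 RPKM in YWHAG knockdown libraries and 2.12 to 2.85 RPKM in siRNA controls. Their part in the results was not tested. Fewer cells carrying a transcript and less of it per cell cannot be told apart in such bulk libraries.

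None of the 9 client genes passed the test in either knockdown. The test was limma on log2(RPKM + 1), two-sided, with Benjamini-Hochberg adjustment over all genes and a threshold of 0.05. Log2 changes are on that scale unless another is named, so for genes of low RPKM they are smaller than the ratio of RPKM. In LY6K-AS knockdown it called 0 of 14666 genes (0%), and in YWHAG knockdown 0 of 13903 (0%), so the absence of calls is not particular to the clients. With the spread pooled over 8 libraries the counts were 64 and 214 of 12864 genes, and no client was among them. With LY6K-AS knockdown 1 or 2 left out, which leaves the spread to the close LNA controls, they were 7722 and 4352 of 14666. At an unadjusted p under 0.05 it named 25.3% of all genes in LY6K-AS knockdown and 16.4% in YWHAG knockdown, and 0 of 9 members in each. The members' median change was 0.15 on the log2 scale in LY6K-AS knockdown, where the median over all genes was 0.0025. In YWHAG knockdown it was -0.053, against -0.051 over all genes. The median absolute change of the members was 0.15, against 0.21 over all genes, in LY6K-AS knockdown, and 0.053, against 0.19, in YWHAG knockdown.

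In LY6K-AS knockdown 7 of 9 members had a change above 0, as did 50.3% of all genes. Both knockdown libraries lay above both LNA controls for 5 members (BAD, FOXO1, FOXO3, TSC2 and AKT1S1; 31.5% of all genes) and below both for BRAF (30.5%), so the groups did not overlap for 6 of 9, as for 62% of all genes. In YWHAG knockdown 3 of 9 members had a change above 0, as did 42.4% of all genes. No member lay above both siRNA controls (20.4% of all genes), and BRAF, KSR1 and FOXO1 lay below both (30.8%), so 3 of 9 did not overlap, as for 51.2% of all genes. BRAF was thus the 1 member below its controls in all 4 knockdown libraries. The share of all genes that did so in both knockdowns was not computed, so this is a description only. After removal of a trend with GC content, described further on, its change in LY6K-AS knockdown was 0.037.

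**Figure D1:**
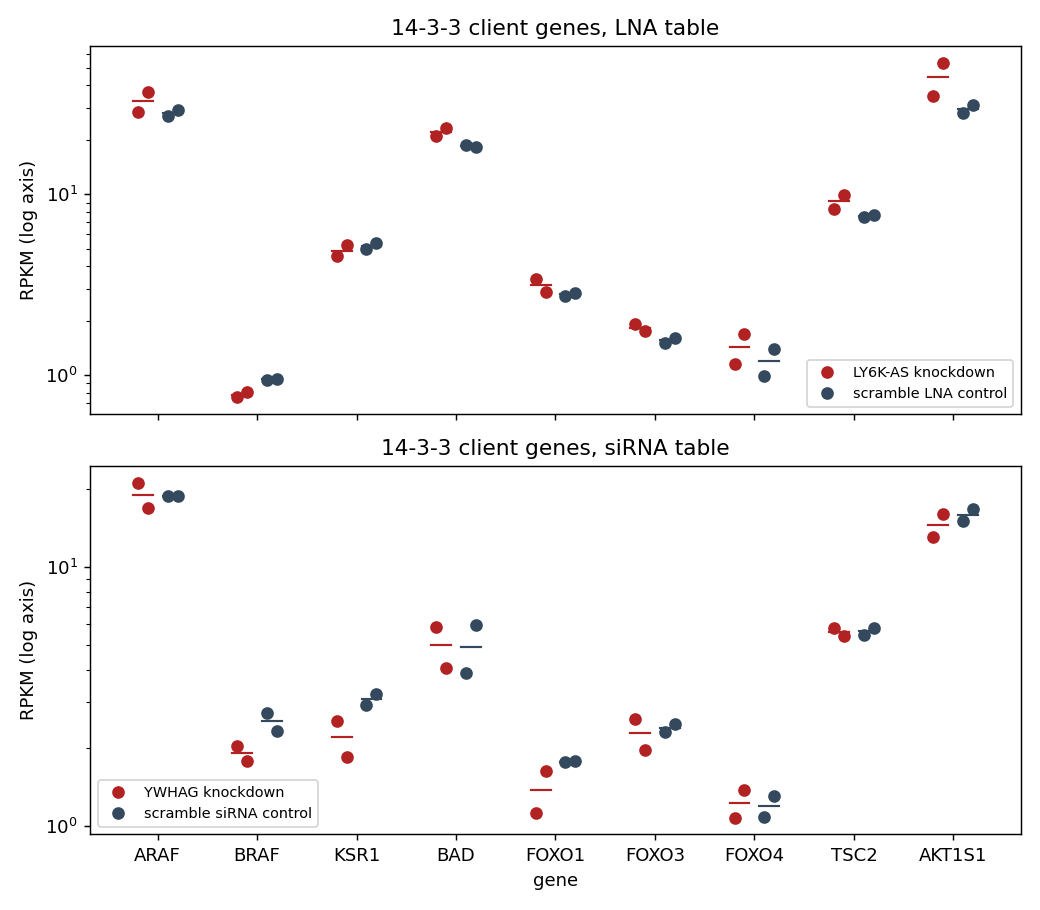
RPKM per library (log axis) of the 9 client genes in the LNA table (top) and the siRNA table (bottom), with knockdown libraries in red to the left of their scramble controls in dark blue; each point is 1 library and the short line the mean of 2. In the LNA table AKT1S1 shows the widest step, with 35.2 and 53.5 RPKM in LY6K-AS knockdown and 28.3 and 31.3 RPKM in controls, while in the siRNA table the points of 6 genes overlap between groups.

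The clients were present at widely different levels. In LNA controls AKT1S1 averaged 29.8 RPKM and ARAF 28.1, with overlapping libraries; then came BAD at 18.5, TSC2 at 7.57, KSR1 at 5.19, FOXO1 at 2.80, FOXO3 at 1.55, FOXO4 at 1.19 and BRAF at 0.946 RPKM. From ARAF downward, the libraries of neighbours in that order did not overlap. In siRNA controls ARAF averaged 18.8 RPKM, AKT1S1 15.8, TSC2 5.64, BAD 4.92, KSR1 3.08, BRAF 2.53, FOXO3 2.38, FOXO1 1.77 and FOXO4 1.19; TSC2 and BAD overlapped, and so did BRAF and FOXO3. ARAF and AKT1S1 stood at the 89.2nd and 89.9th percentile of all genes tested in LNA controls, and BRAF at the 16.7th. The 2 tables were normalized separately, so a level in one is set against a level in the other only as a description.

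ARAF and BRAF are serine/threonine kinases that pass the signal from RAS to MEK, and KSR1 is a related scaffold that brings RAF, MEK and ERK together. ARAF had 28.5 and 36.8 RPKM in LY6K-AS knockdown libraries (2635 and 4014 reads), against 27.0 and 29.2 RPKM in LNA controls (3239 and 3148 reads). The groups overlapped, and only LY6K-AS knockdown 2 stood above both controls. ARAF thus had a log2 change of 0.20 ± 0.15 (SE), with a 95% interval of -0.21 to 0.61 and a limma adjusted p of 0.441. Without LY6K-AS knockdown 1 the change was 0.38, and without LY6K-AS knockdown 2 it was 0.021. ARAF had 21.1 and 16.8 RPKM in YWHAG knockdown libraries and 18.7 and 18.8 RPKM in siRNA controls. Here 1 knockdown library stood on each side of the controls, and the log2 change was 0.0054 ± 0.16 (SE; limma adjusted p = 0.99).

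BRAF, the RAF kinase mutated most often in human cancer, was the member lowest in the LNA table. It had 0.754 and 0.806 RPKM in LY6K-AS knockdown libraries (410 and 517 reads), against 0.940 and 0.951 RPKM in LNA controls (663 and 603 reads). Both knockdown libraries lay below both controls, at 79.8 and 85.3% of the control mean. On log2(RPKM + 1) the change was -0.13 ± 0.10 (SE; limma adjusted p = 0.437). With 0.1 in place of 1 added to the RPKM it was -0.25. In YWHAG knockdown libraries BRAF had 2.03 and 1.78 RPKM (1458 and 1248 reads), against 2.73 and 2.32 RPKM in siRNA controls (1956 and 1658 reads). Again both knockdown libraries lay below both controls, at 80.5 and 70.6% of the control mean, and the controls themselves differed by a read ratio of 0.848 (siRNA control 3 over 2; 95% interval 0.794 to 0.906, counting error only). The log2 change was -0.28 ± 0.14 (SE), with a 95% interval of -0.63 to 0.08 and a limma adjusted p of 0.381.

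KSR1 had the most negative change of the 9 in YWHAG knockdown. It had 2.54 and 1.85 RPKM in YWHAG knockdown libraries (1033 and 732 reads), against 2.93 and 3.23 RPKM in siRNA controls (1188 and 1310 reads). The groups did not overlap, and knockdown library 2 stood at 59.9% of the control mean, library 1 at 82.5%. The log2 change was -0.36 ± 0.16 (SE), with a 95% interval of -0.77 to 0.05, an unadjusted p of 0.074 and a limma adjusted p of 0.342. In LY6K-AS knockdown KSR1 had 4.55 and 5.22 RPKM, against 5.0 and 5.37 RPKM in LNA controls. These groups overlapped, and the log2 change was -0.074 ± 0.11 (SE; limma adjusted p = 0.689).

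The rest of the RAS, RAF and ERK cascade, as a list of 18 genes that are no members, gave 0 calls in either direction in both knockdowns. In LY6K-AS knockdown 18 were tested with a median change of -0.08, and at an unadjusted p under 0.05, which 13.6% of all genes met as higher and 11.7% as lower, 4 were higher and 2 lower. MAPK3, which encodes the kinase ERK1, had 13.9 and 16.9 RPKM in LY6K-AS knockdown libraries and 10.3 and 10.7 RPKM in LNA controls (log2 change 0.50, limma adjusted p = 0.128). The RAS gene NRAS lay the other way there, with 12.8 and 12.0 RPKM in knockdown libraries and 15.9 and 16.2 RPKM in LNA controls (log2 change -0.35, limma adjusted p = 0.13). KSR2, the relative of KSR1, had 0.979 and 0.414 RPKM in LY6K-AS knockdown libraries and 0.866 and 0.913 RPKM in LNA controls, and in the siRNA table it was below the filter.

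In YWHAG knockdown 17 genes of the cascade were tested with a median change of -0.017, and 2 were higher and 0 lower at an unadjusted p under 0.05, met by 7.51% of all genes as higher and 8.9% as lower. NRAS had 22.4 and 22.8 RPKM in YWHAG knockdown libraries and 13.3 and 13.4 RPKM in siRNA controls. Its groups stood far apart relative to their spread, with a log2 change of 0.72 ± 0.12 (SE; limma adjusted p = 0.179). HRAS had 9.25 and 12.9 RPKM in YWHAG knockdown libraries and 7.23 and 7.76 RPKM in siRNA controls (log2 change 0.49, limma adjusted p = 0.3).

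A list of 18 genes that ERK signalling is known to induce, feedback phosphatases among them, also gave 0 calls. Of 16 tested in LY6K-AS knockdown, 8 were higher and 0 lower at an unadjusted p under 0.05 (13.6 and 11.7% of all genes). The median change was 0.34. EPHA2, an ephrin receptor kinase, had 150 and 168 RPKM in LY6K-AS knockdown libraries and 87.1 and 95.5 RPKM in LNA controls (log2 change 0.79, limma adjusted p = 0.103). FOSL1, an AP-1 subunit, had 37.6 and 44.8 RPKM in LY6K-AS knockdown libraries and 24.7 and 26.1 RPKM in LNA controls (log2 change 0.67, limma adjusted p = 0.104). The mean GC content of the list was 55.3%; changes followed GC content in this table, as given further on. With the GC trend removed EPHA2 had a change of 0.49 and FOSL1 of 0.41. In YWHAG knockdown 17 were tested, with a median of -0.0029. At an unadjusted p under 0.05, 2 were higher and 1 lower (7.51 and 8.9% of all genes). EPHA2 had 28.8 and 35.3 RPKM in YWHAG knockdown libraries and 22.0 and 23.2 RPKM in siRNA controls. Its log2 change there was 0.48 (limma adjusted p = 0.27). DUSP5, a phosphatase of ERK, had 10.7 and 26.7 RPKM in YWHAG knockdown libraries and 45.8 and 39.9 RPKM in siRNA controls, with a wide gap between the knockdown libraries (log2 change -1.28 ± 0.42, SE; limma adjusted p = 0.27).

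BAD is a BH3-only protein that promotes apoptosis by occupying BCL2, BCL-XL and BCL-W. It had 21.0 and 23.2 RPKM in LY6K-AS knockdown libraries (940 and 1223 reads), against 18.8 and 18.2 RPKM in LNA controls (1089 and 950 reads). Both knockdown libraries lay above both controls, at 114 and 125% of the control mean. BAD thus had a log2 change of 0.24 ± 0.09 (SE), with a 95% interval of -0.0093 to 0.50, the smallest unadjusted p of the 9 in that comparison (0.0558) and a limma adjusted p of 0.208. Without LY6K-AS knockdown 1 the change was 0.31, and without LY6K-AS knockdown 2 it was 0.18. In YWHAG knockdown libraries BAD had 5.86 and 4.08 RPKM (346 and 235 reads), against 3.87 and 5.96 RPKM in siRNA controls (228 and 351 reads). The 2 groups covered almost the same range, and the siRNA controls differed from each other by a read ratio of 1.54 (control 3 over 2; 95% interval 1.30 to 1.83, counting error only). The log2 change was 0.019 ± 0.25 (SE), with a 95% interval of -0.61 to 0.65, the widest of the 9.

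Of 10 other BCL2 family genes 9 were tested in each knockdown, with 0 calls. In LY6K-AS knockdown their median change was 0.21. At an unadjusted p under 0.05, 4 were higher and 0 lower (13.6 and 11.7% of all genes). MCL1, a survival protein, had 80.8 and 81.6 RPKM in LY6K-AS knockdown libraries and 54.2 and 54.1 RPKM in LNA controls (log2 change 0.58, limma adjusted p = 0.103). BCL2L1, which encodes BCL-XL, had 96.4 and 95.7 RPKM in LY6K-AS knockdown libraries and 67.5 and 68.4 RPKM in LNA controls (log2 change 0.49, limma adjusted p = 0.104). Both genes had libraries of a group closely together, yet neither passed. In YWHAG knockdown the median was -0.050, with 1 higher and 1 lower at an unadjusted p under 0.05 (7.51 and 8.9% of all genes). PMAIP1, the BH3-only protein NOXA, had 3.04 and 3.33 RPKM in YWHAG knockdown libraries and 1.43 and 1.66 RPKM in siRNA controls (log2 change 0.72, limma adjusted p = 0.185). BCL2L11, the BH3-only protein BIM, had 3.13 and 2.49 RPKM in YWHAG knockdown libraries and 6.18 and 5.54 RPKM in siRNA controls (log2 change -0.85, limma adjusted p = 0.183).

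FOXO1, FOXO3 and FOXO4 are forkhead transcription factors of stress resistance, cell cycle arrest and apoptosis. FOXO1 had 3.39 and 2.89 RPKM in LY6K-AS knockdown libraries (516 and 518 reads), against 2.75 and 2.85 RPKM in LNA controls (542 and 506 reads). Knockdown library 2 stood barely above the higher control, and the log2 change was 0.12 ± 0.11 (SE; limma adjusted p = 0.516). FOXO1 had 1.12 and 1.63 RPKM in YWHAG knockdown libraries (225 and 319 reads), against 1.76 and 1.78 RPKM in siRNA controls (352 and 356 reads). Both knockdown libraries lay below both controls, knockdown library 1 at 63.4% of the control mean and library 2 at 92.1%. FOXO1 there had a log2 change of -0.23 ± 0.15 (SE), with a 95% interval of -0.62 to 0.16 and a limma adjusted p of 0.496.

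FOXO3 had 1.91 and 1.74 RPKM in LY6K-AS knockdown libraries, against 1.5 and 1.61 RPKM in LNA controls. Both knockdown libraries were above both controls, with a log2 change of 0.15 ± 0.10 (SE; limma adjusted p = 0.401). In YWHAG knockdown libraries it had 2.58 and 1.96 RPKM, against 2.29 and 2.47 RPKM in siRNA controls, which lay between the knockdown libraries (log2 change -0.053, limma adjusted p = 0.883). FOXO4 rested on the fewest reads of the 9, between 104 and 180 per library. It had 1.15 and 1.69 RPKM in LY6K-AS knockdown libraries and 0.991 and 1.40 RPKM in LNA controls, and its log2 change was 0.14 ± 0.17 (SE; limma adjusted p = 0.63). It had 1.07 and 1.37 RPKM in YWHAG knockdown libraries and 1.08 and 1.30 RPKM in siRNA controls, and its log2 change was 0.021 ± 0.14 (SE; limma adjusted p = 0.951). The FOXO4 groups overlapped in both tables. FOXO6, a further family member, had 1.26 and 1.36 RPKM in LY6K-AS knockdown libraries and 1.01 and 0.942 RPKM in LNA controls (log2 change 0.23, limma adjusted p = 0.239), and was below the filter in the siRNA table.

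Genes that FOXO factors are known to activate, a list of 20, gave 0 calls. In LY6K-AS knockdown 17 were tested with a median change of 0.23. At an unadjusted p under 0.05, 4 were higher and 0 lower (13.6 and 11.7% of all genes). GADD45A, a stress gene that p53 also induces, had 34.1 and 48.7 RPKM in LY6K-AS knockdown libraries and 14.8 and 15.8 RPKM in LNA controls (log2 change 1.36, limma adjusted p = 0.103). BBC3, the BH3-only protein PUMA and likewise a p53 target, had 9.44 and 16.4 RPKM in LY6K-AS knockdown libraries and 4.01 and 4.6 RPKM in LNA controls (log2 change 1.35, limma adjusted p = 0.109). In YWHAG knockdown 18 were tested with a median of -0.11. At an unadjusted p under 0.05, 0 were higher and 1 lower (7.51 and 8.9% of all genes). That 1 was BCL2L11, which belongs to this list too. GADD45A had 7.71 and 8.98 RPKM in YWHAG knockdown libraries and 6.36 and 6.24 RPKM in siRNA controls (log2 change 0.35, limma adjusted p = 0.306).

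TSC2 is the GTPase-activating subunit that keeps RHEB off, and AKT1S1 binds RPTOR and inhibits mTORC1 directly. AKT1S1 had the largest change of the 9 in LY6K-AS knockdown. It had 35.2 and 53.5 RPKM in LY6K-AS knockdown libraries (5286 and 9478 reads), against 28.3 and 31.3 RPKM in LNA controls (5508 and 5493 reads). Both knockdown libraries lay above both controls, library 1 at 118% and library 2 at 179% of the control mean. The mean was 44.3 ± 12.9 RPKM in LY6K-AS knockdown and 29.8 ± 2.18 RPKM in LNA controls (SD, n = 2 each). The log2 change was 0.53 ± 0.22 (SE), with a 95% interval of -0.070 to 1.13 and a limma adjusted p of 0.231. Without LY6K-AS knockdown 1 the change was 0.82, and without LY6K-AS knockdown 2 it was 0.23. Counting error was small beside the gap between libraries: the pooled read ratio of knockdown to control was 1.52 (95% interval 1.48 to 1.56), and knockdown library 2 exceeded knockdown library 1 by the same ratio of 1.52 (1.47 to 1.57), both intervals for counting error only.

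AKT1S1 had 13.0 and 16 RPKM in YWHAG knockdown libraries, against 15 and 16.7 RPKM in siRNA controls. The groups overlapped, and the log2 change was -0.13 ± 0.16 (SE; limma adjusted p = 0.721). TSC2 had 8.35 and 9.93 RPKM in LY6K-AS knockdown libraries (4860 and 6822 reads), against 7.45 and 7.69 RPKM in LNA controls (5629 and 5227 reads). Both knockdown libraries lay above both controls, at 110 and 131% of the control mean. The log2 change was 0.24 ± 0.11 (SE), with a 95% interval of -0.072 to 0.55 and a limma adjusted p of 0.274. Without LY6K-AS knockdown 1 the change was 0.35, and without LY6K-AS knockdown 2 it was 0.12. In YWHAG knockdown libraries TSC2 had 5.79 and 5.39 RPKM, against 5.47 and 5.82 RPKM in siRNA controls, with overlapping groups. Its log2 change there was -0.012 ± 0.13 (SE), with the smallest SE of the 9 and a 95% interval of -0.34 to 0.32. TSC1, the partner that stabilises TSC2, had 2.46 and 2.77 RPKM in LY6K-AS knockdown libraries and 2.75 and 2.49 RPKM in LNA controls, and 5.04 and 4.82 RPKM in YWHAG knockdown libraries and 6.55 and 5.35 RPKM in siRNA controls.

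**Figure D2:**
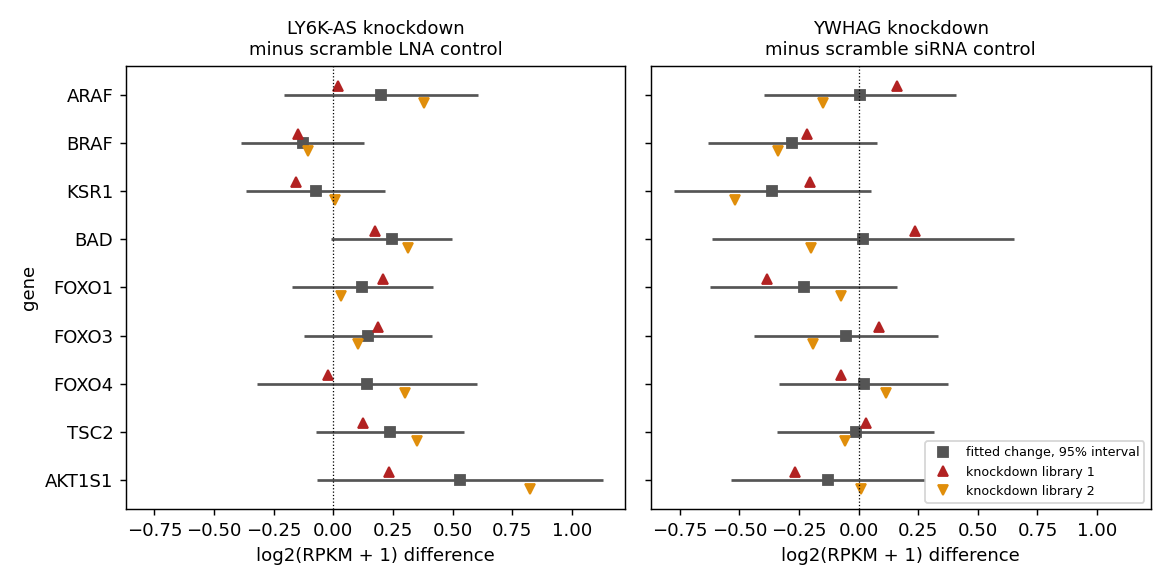
Difference in log2(RPKM + 1) between knockdown and scramble control for the 9 client genes, LY6K-AS knockdown on the left and YWHAG knockdown on the right. Squares with bars are the fitted change and its 95% interval, triangles the 2 knockdown libraries, each set against the control mean. Every interval crosses 0; the upper bound reaches 1.13 for AKT1S1 in LY6K-AS knockdown and the lower bound -0.77 for KSR1 in YWHAG knockdown.

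Over the 9 members, the 95% intervals drawn in the plot of changes ran from 0.765-fold (BRAF) to 2.19-fold (AKT1S1) in LY6K-AS knockdown and from 0.585-fold (KSR1) to 1.57-fold (BAD) in YWHAG knockdown, as ratios of RPKM + 1.

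The TSC and mTORC1 list, 20 genes beside the members, gave 0 calls with all 20 tested in each knockdown. Its median was -0.12 in LY6K-AS knockdown, with 2 higher and 0 lower at an unadjusted p under 0.05 (13.6 and 11.7% of all genes). It was 0.12 in YWHAG knockdown, with 4 higher and 0 lower (7.51 and 8.9% of all genes). ULK1, the autophagy kinase that mTORC1 inhibits, had 53.4 and 48.4 RPKM in LY6K-AS knockdown libraries and 36.5 and 40.8 RPKM in LNA controls (log2 change 0.39, limma adjusted p = 0.141). DEPTOR, an inhibitor of mTOR, had 1.72 and 1.52 RPKM in LY6K-AS knockdown libraries and 1.09 and 1.15 RPKM in LNA controls (log2 change 0.30, limma adjusted p = 0.174). In YWHAG knockdown the smallest p belonged to EIF4EBP2 and RHEB. EIF4EBP2, a translation repressor that mTORC1 phosphorylates, had 12.9 and 8.71 RPKM in YWHAG knockdown libraries and 6.28 and 5.34 RPKM in siRNA controls (log2 change 0.77, limma adjusted p = 0.251). RHEB, the GTPase that TSC2 acts on, had 26.8 and 25.6 RPKM in YWHAG knockdown libraries and 19.1 and 18.8 RPKM in siRNA controls (log2 change 0.44, limma adjusted p = 0.251).

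The PI3K and AKT list of 18 genes, upstream of TSC2, AKT1S1, BAD and the FOXO factors, gave 0 calls. In LY6K-AS knockdown 17 were tested (median -0.038), with 2 higher and 0 lower at an unadjusted p under 0.05 (13.6 and 11.7% of all genes). PIK3CD, a catalytic subunit of PI3K, had 5.27 and 4.53 RPKM in LY6K-AS knockdown libraries and 3.35 and 3.73 RPKM in LNA controls (log2 change 0.38, limma adjusted p = 0.158). IRS1, the insulin receptor substrate, had 24.2 and 31.6 RPKM in LY6K-AS knockdown libraries and 17.9 and 20.6 RPKM in LNA controls (log2 change 0.50, limma adjusted p = 0.169). In YWHAG knockdown 16 were tested (median 0.0033), with 2 higher and 1 lower (7.51 and 8.9% of all genes). The regulatory subunit PIK3R1 had 2.63 and 2.05 RPKM in YWHAG knockdown libraries and 1.15 and 1.10 RPKM in siRNA controls (log2 change 0.64, limma adjusted p = 0.21), and PHLPP1, a phosphatase of AKT, had 2.37 and 2.17 RPKM in YWHAG knockdown libraries and 4.33 and 3.74 RPKM in siRNA controls (log2 change -0.62, limma adjusted p = 0.209).

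**Figure D3:**
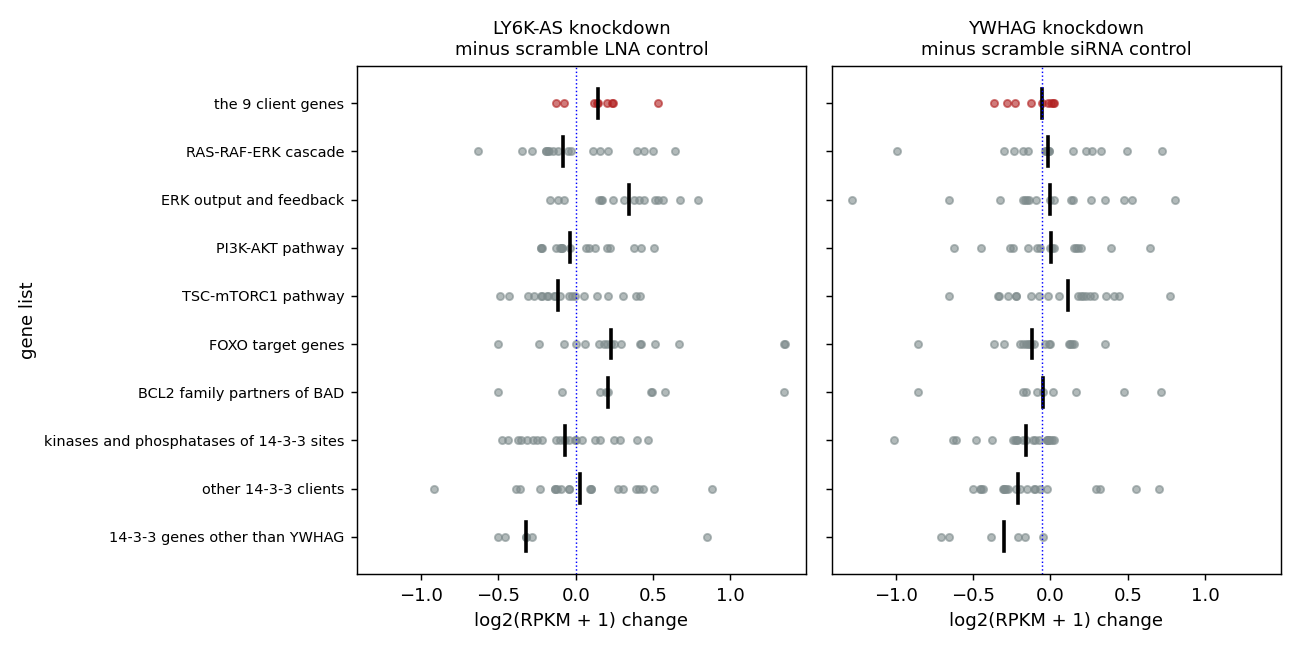
Log2(RPKM + 1) change of each gene tested in the 9 pathway lists (grey points, 1 per gene) and of the 9 client genes (red), with each list's median as a black bar and the median of all genes as a dotted blue line; YWHAG itself is not drawn. The client genes span -0.13 to 0.53 in LY6K-AS knockdown and -0.36 to 0.02 in YWHAG knockdown, within the range of the other lists.

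Kinases and phosphatases that write or erase 14-3-3 sites, 22 genes, gave 0 calls. Their median was -0.071 over 22 tested in LY6K-AS knockdown. At an unadjusted p under 0.05, 1 was higher and 4 lower (13.6 and 11.7% of all genes). It was -0.16 over 21 tested in YWHAG knockdown, with 0 higher and 4 lower (7.51 and 8.9% of all genes). The PP2A scaffold subunit PPP2R1B lay below its controls in both. It had 4.72 and 4.8 RPKM in LY6K-AS knockdown libraries and 6.53 and 6.21 RPKM in LNA controls (log2 change -0.35, limma adjusted p = 0.131). It had 6.57 and 6.95 RPKM in YWHAG knockdown libraries and 11.5 and 10.2 RPKM in siRNA controls (log2 change -0.61, limma adjusted p = 0.209). The PP2A catalytic subunit PPP2CA had 22.2 and 18.4 RPKM in LY6K-AS knockdown libraries and 27.9 and 27.5 RPKM in LNA controls (log2 change -0.44, limma adjusted p = 0.14). PIM1, a survival kinase that phosphorylates BAD, had 3.24 and 5.59 RPKM in YWHAG knockdown libraries and 9.37 and 9.86 RPKM in siRNA controls (log2 change -1.01, limma adjusted p = 0.221).

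Of 20 further 14-3-3 clients outside the 9, all were tested in each knockdown and 0 passed. In LY6K-AS knockdown 5 were higher and 2 lower at an unadjusted p under 0.05 (13.6 and 11.7% of all genes), with a median of 0.026. Those of smallest p were the mitotic regulators CDC25C, with 2.03 and 2.02 RPKM in LY6K-AS knockdown libraries and 4.49 and 4.90 RPKM in LNA controls (log2 change -0.91, limma adjusted p = 0.103), and WEE1, with 2.79 and 2.63 RPKM in knockdown libraries and 3.60 and 3.94 RPKM in LNA controls (log2 change -0.36, limma adjusted p = 0.14). In YWHAG knockdown 1 was higher and 2 lower (7.51 and 8.9% of all genes), with a median of -0.21. The histone deacetylase HDAC4 had 0.602 and 0.486 RPKM in YWHAG knockdown libraries and 1.15 and 1.21 RPKM in siRNA controls (log2 change -0.50, limma adjusted p = 0.221). MDM4, the p53 inhibitor, had 2.01 and 1.80 RPKM in YWHAG knockdown libraries and 2.89 and 3.06 RPKM in siRNA controls (log2 change -0.45, limma adjusted p = 0.251).

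The 14-3-3 genes that supply the binding partners gave 0 calls over 7 tested in each knockdown. At an unadjusted p under 0.05, 1 (SFN) was higher and 4 were lower in LY6K-AS knockdown (13.6 and 11.7% of all genes). In YWHAG knockdown 0 were higher and 3 lower, YWHAG itself among them (7.51 and 8.9% of all genes). The isoforms other than YWHAG had a median of -0.32 in LY6K-AS knockdown and -0.30 in YWHAG knockdown. SFN, the sigma isoform and a p53 target, lay on opposite sides: it had 292 and 295 RPKM in LY6K-AS knockdown libraries and 161 and 164 RPKM in LNA controls (log2 change 0.85, limma adjusted p = 0.103). It had 50.7 and 58.9 RPKM in YWHAG knockdown libraries and 86.1 and 93.7 RPKM in siRNA controls (log2 change -0.71, limma adjusted p = 0.198). YWHAE, the epsilon isoform, had 16 and 14.2 RPKM in LY6K-AS knockdown libraries and 22.1 and 21.3 RPKM in LNA controls (log2 change -0.50, limma adjusted p = 0.109). YWHAG in LY6K-AS knockdown had 133 and 101 RPKM, against 143 and 145 RPKM in LNA controls (log2 change -0.31, limma adjusted p = 0.291).

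Whether the 2 knockdowns differed in their effect on the clients was tested directly, as the LY6K-AS change minus the YWHAG change in 1 limma fit over 8 libraries. Oligonucleotide type, dose, controls and expression table differed along with the target, so their parts in a difference cannot be told apart. The difference was above 0 for all 9 members, as for 54.4% of all 12864 genes, and 0 of 9 passed, while 0.179% of all genes did (0.0466% as higher and 0.132% as lower); at an unadjusted p under 0.05 it named 0 of 9 and 20.4%. AKT1S1 came nearest, with a difference of 0.66 ± 0.29 (SE), a 95% interval of -0.025 to 1.34, an unadjusted p of 0.057 and a limma adjusted p of 0.256. Without LY6K-AS knockdown 1 this difference was 0.95, and without LY6K-AS knockdown 2 it was 0.36. FOXO1 followed with 0.35 ± 0.20 (SE; limma adjusted p = 0.352) and KSR1 with 0.29 ± 0.20 (SE; limma adjusted p = 0.45). The other 6 members lay between 0.12 and 0.25. With the trend of the changes with GC content removed, the difference was below 0 for BAD (-0.14), FOXO4 (-0.10) and TSC2 (-0.033). In at least 1 of the knockdowns, the change turned sign under at least 1 alternative processing for 8 of the 9, the exception being FOXO1.

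Changes in LY6K-AS knockdown followed the GC content of the transcripts, which bears on the clients because they run from 42.8% GC (BRAF) to 65.0% (BAD). Across 14666 genes the Spearman correlation of the change with GC content was 0.537 (0.421 for knockdown library 1 and 0.530 for library 2), against 0.248 for the difference between the LNA controls; genes are not independent replicates. In YWHAG knockdown it was 0.037 across 13755 genes, against 0.271 for the difference between the siRNA controls. After removal of the trend, AKT1S1 (63.9% GC) had a change of 0.18 ± 0.17 (SE), against the 0.53 given above, and ARAF had 0.098, against 0.20. BAD then had -0.13 (against 0.24), TSC2 -0.024 (against 0.24), FOXO4 -0.035 (against 0.14) and BRAF 0.037 (against -0.13), so these 4 turned sign. FOXO1 and FOXO3, at 47.9 and 49.8% GC, had 0.20 and 0.18 with the trend removed, and KSR1 -0.24 (limma adjusted p = 0.234). In YWHAG knockdown BRAF and KSR1 had -0.24 and -0.32 with the trend removed, close to -0.28 and -0.36 without. None passed in either form. Of the other genes named in LY6K-AS knockdown, the change shrank by over 1.5 times for MAPK3 (to 0.25), NRAS (-0.17), PIK3CD (0.17), ULK1 (0.031), PPP2CA (-0.27), WEE1 (-0.18) and SFN (0.53), as it did for EPHA2 and FOSL1.

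**Figure D4:**
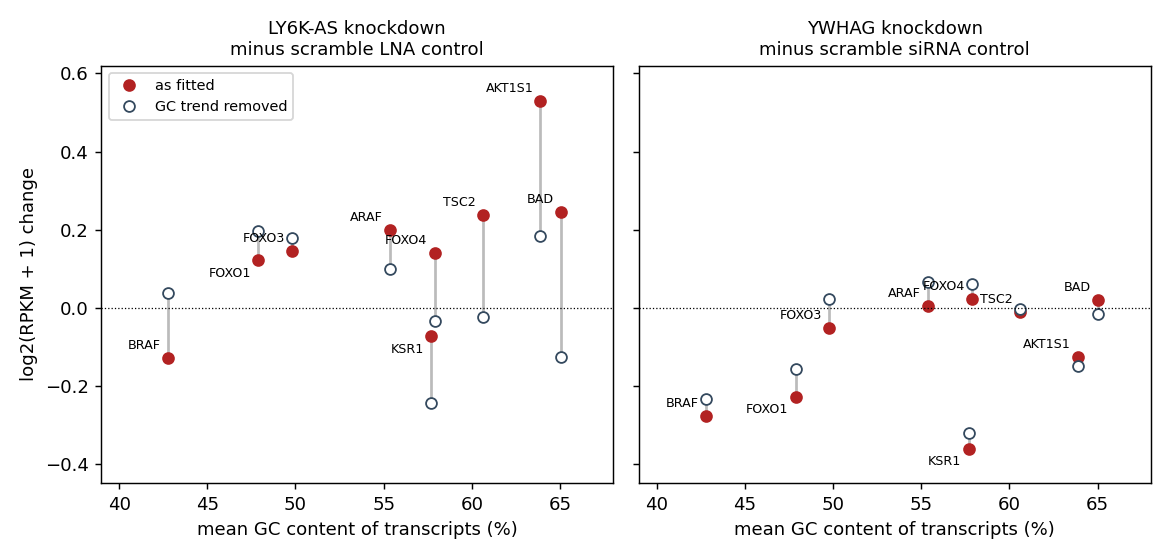
Log2(RPKM + 1) change of the 9 client genes against the mean GC content of their annotated transcripts in percent, for LY6K-AS knockdown (left) and YWHAG knockdown (right); filled circles are changes as fitted, open circles the same after the trend with GC was taken out of every library. On the left AKT1S1, BAD, TSC2 and FOXO4 drop toward or below 0, and BRAF moves to 0.037; on the right the largest shift is 0.074 (FOXO3).

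The genes nearest to each client in pattern were named by the highest Pearson r over 8 libraries, each value set against the control mean of its table, among 12864 genes. They were ATP8B3 for ARAF (0.992), ZRANB1 for BRAF (0.993), ZNF32-AS2 for KSR1 (0.985), FOXL2 for BAD (0.965), MYNN for FOXO1 (0.985), AL162595.1 for FOXO3 (0.991), INTS1 for FOXO4 (0.943), TMEM250 for TSC2 (0.999) and PIDD1 for AKT1S1 (0.991). ZNF32-AS2 rested on only 11 to 37 reads a library and AL162595.1 on 16 to 33, so counting error is large in their values. Among the clients themselves TSC2 and AKT1S1 were most alike (0.907), then TSC2 and ARAF (0.876), BRAF and KSR1 (0.814) and AKT1S1 and FOXO4 (0.801). The 8 libraries differ in depth and in how far their values followed GC content. These coefficients describe those libraries, were chosen as the highest of many, and carry no test.

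The client genes lie on 8 chromosomes, given here on hg38 from GENCODE 29. ARAF (ENSG00000078061) runs from 47561100 to 47571920 on the plus strand of chromosome X, and FOXO4 (ENSG00000184481) from 71096197 to 71103535 on the plus strand of the same chromosome. BRAF (ENSG00000157764) lies at 140719327 to 140924928 on the minus strand of chromosome 7, and KSR1 (ENSG00000141068) at 27456470 to 27626438 on the plus strand of chromosome 17. BAD (ENSG00000002330) lies at 64269830 to 64284704 on the minus strand of chromosome 11, FOXO1 (ENSG00000150907) at 40469953 to 40666597 on the minus strand of chromosome 13, and FOXO3 (ENSG00000118689) at 108559835 to 108684774 on the plus strand of chromosome 6. TSC2 (ENSG00000103197) lies at 2047465 to 2089487 on the plus strand of chromosome 16, and AKT1S1 (ENSG00000204673) at 49869033 to 49878459 on the minus strand of chromosome 19.

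Exons of 7 clients share bases with another annotated gene, and nothing in the labels or files says whether counting used strand, so reads there cannot be told apart. Overlaps include 23 bases for ARAF (with SYN1), 1239 for BRAF (NDUFB2), 404 for BAD (GPR137), 269 for FOXO1 (LINC00598), 402 and 778 for TSC2 (NTHL1 and PKD1), 392 for AKT1S1 (TBC1D17), and 432 and 656 for KSR1 (AC015688.4 and AC015688.6). FOXO3 and FOXO4 share none.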

How the data were processed

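The authors deposited RPKM in 2 tables, one of the LNA and one of the siRNA libraries; per the submitters' processing notes STAR, featureCounts, Subread, Picard and hg38 were used, versions not given. The divisor was found from the values: within 0.05 reads, 100% of values came out as whole reads with gene end minus start in the LNA table and, in the siRNA table, with merged exon length. LNA values were rescaled to merged exon length. BRAF, KSR1, FOXO1 and TSC2 have another identifier version in GENCODE 29, so the whole length that made all their values whole reads was used. Of 66206 identifiers 57055 matched and 9151 were left out of the LNA tests. The siRNA control columns are numbered 2 and 3 where the labels have 1 and 2, so they were matched to their group and to no single label.

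Each knockdown was tested against its own controls in limma 3.58.1 (R 4.3.3, intensity trend) on log2(RPKM + 1), which understates changes of low genes. Genes with at least 0.5 RPKM in at least 2 of 4 libraries were tested. The fit was also run on simulated reads with a fixed spread that was not taken from these libraries. That run does not show what the fit can find here. At this depth 3 reads were worth 0.0868 to 0.115 RPM. Counting intervals are 95% intervals and cover counting error only. GC content is the mean over a gene's transcripts, and its trend was removed with a lowess curve of span 0.3. Named genes were the members, both targets, TSC1, FOXO6 and KSR2, the 2 genes of smallest p in each pathway list and the gene most like each member. An item the rule also names is not reported here. Members and lists were chosen with earlier results of these data known. Alternatives covered pseudocount, filter, normalization, voom on recovered reads, GC trend, spread, divisor, replicate block and each library left out.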

Additional observations from a re-analysis of the deposited data

How the results depend on the processing

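No client gene passed under any alternative that kept all libraries of a comparison, and of 365 settings tried over the 9 genes and 3 comparisons, 335 kept both direction and side of the threshold. With pooled spread, GADD45A, CDC25C and SFN passed in LY6K-AS knockdown and YWHAG, NRAS and SFN in YWHAG knockdown. The counts of genes past the threshold moved more: in LY6K-AS knockdown 64 genes with the spread pooled over 8 libraries and 0 to 7722 with 1 library left out, in YWHAG knockdown 214 with pooled spread and 0 with any library left out, and for the difference between the knockdowns, where 23 passed, 5 with no filter, 5 on reads outside mitochondrially encoded genes, 43 with voom and 0 to 1185 with 1 library left out. Without LY6K-AS knockdown 1 the change was 0.82 for AKT1S1, 0.35 for TSC2, 0.31 for BAD and 0.38 for ARAF. The AKT1S1 difference between the knockdowns was then 0.95. These 5 values crossed the threshold in that setting alone. The counts over all genes also rose there, so no call is taken from it. With 1 knockdown library left, all spread comes from the controls, and that library is taken to share it; the controls lay closer together than the knockdown libraries did.

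With the GC trend removed, the log2 change turned sign in LY6K-AS knockdown for BRAF (0.037), BAD (-0.13), FOXO4 (-0.035), TSC2 (-0.024), TSC1 (0.057) and FOXO6 (-0.25), in YWHAG knockdown for BAD (-0.016) and FOXO3 (0.021), and for the difference for BAD (-0.14), FOXO4 (-0.10) and TSC2 (-0.033). Quantile normalization turned TSC2 (0.021), and reads outside mitochondrially encoded genes turned ARAF (-0.0052), in YWHAG knockdown. Leaving out 1 library at a time gave values on both sides of 0 in LY6K-AS knockdown for KSR1 (-0.16 to 0.0088), FOXO4 (-0.021 to 0.30), TSC1 (-0.065 to 0.062) and KSR2 (-0.42 to 0.067). In YWHAG knockdown it did so for BAD (-0.24 to 0.28), FOXO4 (-0.074 to 0.12), TSC2 (-0.056 to 0.032), ARAF (-0.15 to 0.16), AKT1S1 (-0.27 to 0.012) and FOXO3 (-0.19 to 0.084), and for the difference for FOXO4 (-0.042 to 0.28) and BAD (-0.033 to 0.48). The cause of these turns was not tested.

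With the replicate number as a block, LY6K-AS knockdown gave 0 calls, as without it, and AKT1S1 had 0.53 (limma adjusted p = 0.139). Deviations of same-numbered libraries from their group means had an r of 0.08, so the numbers were not taken to pair them. With 2 libraries per group this r is the same for both numbers by construction. No paired analysis was possible for YWHAG knockdown because the control columns do not carry the replicate numbers of the labels. As deposited, per gene span, 5 members passed the filter in the LNA table (ARAF, BAD, FOXO4, TSC2 and AKT1S1) and 0 were called. Depth limited FOXO4 most, at 104 to 180 reads a library.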
